A study of Mus musculus with 9 samples.

Results

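The mitochondrial protein import machinery was examined as all genes of the deposited matrix whose symbol begins with Timm or Tomm, apart from Timmdc1, together with Chchd4, Samm50, Mtx1, Mtx2, Pmpca and Pmpcb. This gave 26 of 17753 genes, of which 24 had at least 1 FPKM in at least 3 libraries and entered the tests. Pam16, which the rule also names, and Tomm40, Timm10b, Timm21, Timm29 and Timm44 were not analysed here. RNA-seq libraries came from brown fat, white fat and the soleus of C57BL/6J males, wild type and 3 months old, with 3 libraries of each tissue and no treatment named in the labels. The labels state 3 mice and do not say which libraries share a mouse, so p-values measure the spread between these libraries, which may be technical. No source used here gave the depot of the white fat. Brown fat is a heat-producing tissue packed with mitochondria, white fat is a lipid store with few, and the soleus is a slow postural muscle of the hind limb. All values are FPKM, which scales fragments by transcript length and by how many were mapped in each library.

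Nearly all mitochondrial proteins are encoded in the nucleus, made in the cytosol and imported. Receptors and a pore in the outer membrane, the TOM complex, take them up, and they are then passed to the TIM23 complex towards the matrix, to the TIM22 complex for carriers of the inner membrane, to the SAM complex for barrel proteins of the outer membrane, or to an oxidative folding relay between the membranes. Small TIM chaperones escort hydrophobic proteins across the space between the membranes, and a peptidase in the matrix removes the targeting sequence. Tissues that build many mitochondria, such as brown fat and slow muscle, need a large flow of imported proteins.

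The proximal promoters of a few members are shown first, with no test of a link between their sequence and the levels below. They are those of Samm50, with the largest rise in brown over white fat on the log2(FPKM + 1) scale, Timm8b, with the highest mean level, Tomm20, with the largest fall in brown fat against soleus, and Tomm34, the one member lower in brown than in white fat. They were chosen with these values known. For a gene with more than 1 annotated start, the start whose window matched the most of the motifs below is shown, which concerns Tomm34. Each runs 5′ to 3′ from 250 bases before to 50 after the annotated start, from RefSeq on GRCm38.p6, a later build than the mm9 on which the values were made. Capitals mark matches, on either strand, to 4 motifs, which are that of NRF1, AAGGTCA of estrogen-related receptors, CCGGAAG of the ETS factor GABP and AAGATGGCG of YY1.
Samm50 (chr15:84191990-84192289, plus strand): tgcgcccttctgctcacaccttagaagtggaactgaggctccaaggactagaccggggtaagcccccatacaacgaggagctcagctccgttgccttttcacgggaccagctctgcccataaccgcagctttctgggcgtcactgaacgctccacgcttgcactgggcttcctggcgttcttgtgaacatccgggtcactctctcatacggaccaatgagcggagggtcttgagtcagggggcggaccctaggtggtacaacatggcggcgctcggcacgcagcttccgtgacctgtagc
Timm8b (chr9:50603651-50603950, plus strand): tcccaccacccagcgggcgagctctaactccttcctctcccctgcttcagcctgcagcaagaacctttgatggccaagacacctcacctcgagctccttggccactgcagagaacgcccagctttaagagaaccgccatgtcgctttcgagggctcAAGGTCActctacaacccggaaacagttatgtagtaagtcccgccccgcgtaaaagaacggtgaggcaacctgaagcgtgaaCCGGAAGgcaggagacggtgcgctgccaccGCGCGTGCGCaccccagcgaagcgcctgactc
Tomm20 (chr8:126945872-126946171, minus strand): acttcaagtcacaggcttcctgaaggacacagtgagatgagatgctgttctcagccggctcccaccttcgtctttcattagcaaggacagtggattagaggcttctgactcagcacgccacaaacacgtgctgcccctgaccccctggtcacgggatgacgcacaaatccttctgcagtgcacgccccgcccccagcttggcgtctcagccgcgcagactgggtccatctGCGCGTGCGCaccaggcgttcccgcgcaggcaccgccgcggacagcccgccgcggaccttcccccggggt
Tomm34 (chr2:164071120-164071419, minus strand, 1 of 2 annotated starts): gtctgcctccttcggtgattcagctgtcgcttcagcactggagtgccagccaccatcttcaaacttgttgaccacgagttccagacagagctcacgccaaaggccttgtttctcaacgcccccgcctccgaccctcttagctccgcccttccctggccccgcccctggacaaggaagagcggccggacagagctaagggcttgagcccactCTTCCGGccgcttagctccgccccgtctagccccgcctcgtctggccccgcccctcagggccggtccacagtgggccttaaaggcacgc

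Timm8b held 3 of the motifs, Tomm20 the NRF1 motif and Tomm34 the GABP motif on the other strand, and none of the 4 was found in these 300 bases of Samm50. Of 22 tested members with a promoter entry, 10 held the GABP motif (Mtx1, Mtx2, Pmpca, Pmpcb, Timm10, Timm23, Timm8b, Tomm22, Tomm34 and Tomm70a), against 19.7% of tested genes and 9.93% of all genes. The NRF1 motif was found in Chchd4, Timm8b and Tomm20, 3 of 22, against 11.8% of tested genes and 5.19% of all genes. Timm23 and Timm8b held the estrogen-related receptor motif, which 3.81% of tested and 5.38% of all genes held, and Mtx1 and Timm50 held the YY1 motif, found in 3.54% and 1.64%. These are letter matches in a window, counted as a description. The shares are of genes with a promoter entry, 7855 tested and 27025 in all, and a gene counted if any annotated start matched. All genes here are thus those 27025, not the 17753 of the matrix.

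The libraries were of unequal depth. Read totals are unknown, but steps between low FPKM values gave relative depths of 1 to 3.56, the extremes both being white fat libraries. Libraries of 1 tissue correlated across tested genes with a Pearson r of 0.990 to 0.996, and those of different tissues with 0.540 to 0.814. The tissue markers followed the labels in part. Of 10 brown fat markers 9 were higher in brown fat than in white fat, but against soleus 6 were higher, 1 was lower and 3 were not called. Fabp3, a fatty acid carrier also made in muscle, was at 39.65 to 75.9 FPKM in brown fat and 283 to 297.5 FPKM in soleus. Ucp1, the uncoupling protein of brown fat, stood at 3386, 4108 and 3562 FPKM in brown fat, 7.81, 1.45 and 35.7 FPKM in white fat and 4.14, 1.42 and 0.617 FPKM in soleus. All 8 white fat markers were lower in brown fat than in white fat, and 7 were higher in white fat than in soleus, the exception being Hoxc9, at 1.87 to 2.04 FPKM in white fat and 5.42 to 5.965 FPKM in soleus. In soleus the 5 analysed slow muscle markers summed to 22040 to 26240 FPKM, less than the 7 analysed fast muscle markers at 27330 to 32710 FPKM. Macrophage and mesothelial markers were highest in white fat, and fast muscle markers varied among the brown fat libraries. The 8 analysed macrophage markers summed to 48.3 to 56.9 FPKM in brown fat, 485 to 597 FPKM in white fat and 34.7 to 47.7 FPKM in soleus, none of them at 0. The 5 mesothelial markers summed to 1.20 to 1.42 FPKM in brown fat, with Wt1 at 0, to at least 67.7 FPKM in each white fat library and to 0.245 to 2.11 FPKM in soleus. The fast muscle markers summed to 35.0 to 275.6 FPKM in brown fat and 2.83 to 5.65 FPKM in white fat, and Tnnt3 was at 0 in soleus. The part of these cells in the differences below was not tested. In such bulk samples, fewer cells of a type and less RNA per cell cannot be told apart.

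**Figure D1:**
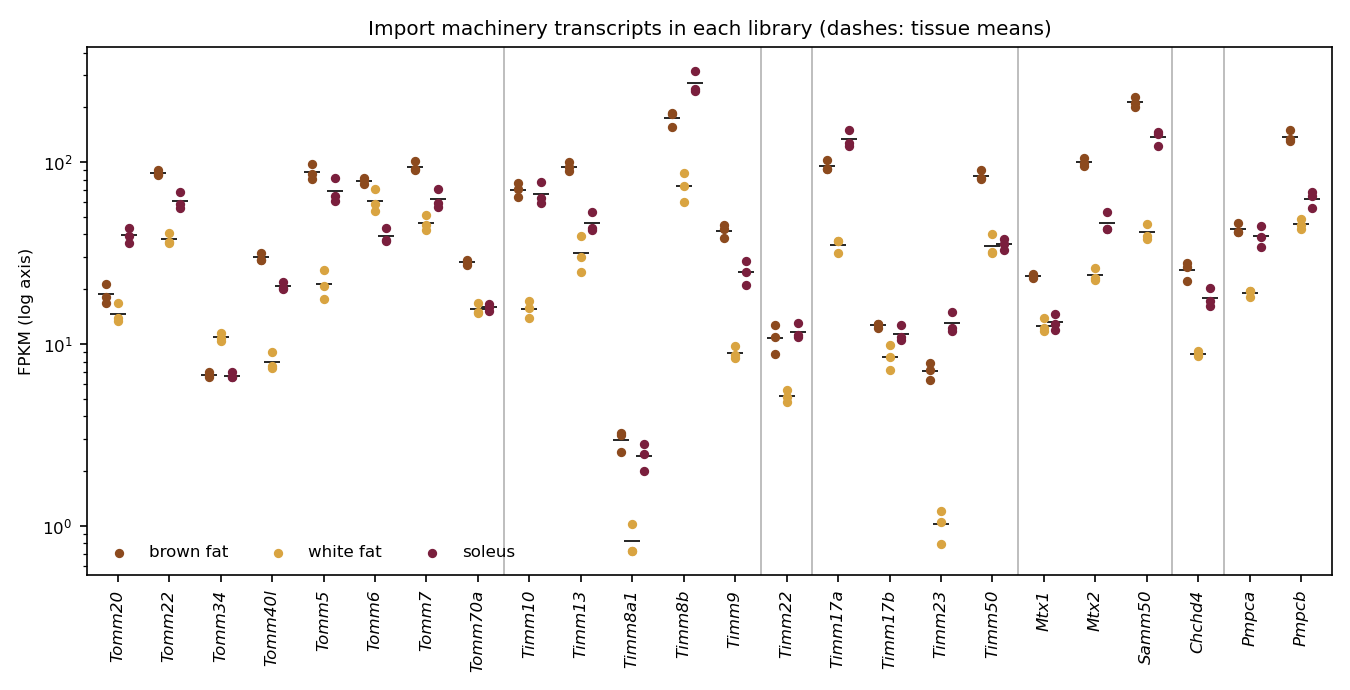
FPKM (log axis) of the 24 tested import genes in each of the 9 libraries, with brown fat, white fat and soleus side by side for each gene, vertical lines between complexes and dashes at tissue means. Brown or soleus points lie highest for every gene but Tomm34, whose white fat points, at 10.4 to 11.4, lie above the others.

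Import transcripts together made up 0.470%, 0.476% and 0.454% of all FPKM in the brown fat libraries, 0.277%, 0.250% and 0.252% in those of white fat and 0.370%, 0.397% and 0.367% in those of soleus (replicates 1, 2 and 3). Their summed level was 1488 to 1632 FPKM in brown fat, 534.5 to 650.5 FPKM in white fat and 1144 to 1400 FPKM in soleus, with no overlap between tissues. Of the 24 tested members, 18 had their highest mean in brown fat, 5 in soleus (Timm17a, Timm22, Timm23, Timm8b and Tomm20) and 1 in white fat (Tomm34). Of all tested genes, 38.0% were highest in brown fat, 24.6% in soleus and 37.4% in white fat.

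Brown fat against white fat separates a tissue dense in mitochondria from one that is not. Of the 24 tested members 23 rose in brown fat and 1 fell, at a limma adjusted p under 0.05, where 72.8% of all 9913 tested genes were called, 38.0% as higher and 34.8% as lower. The members had a median log2 fold change of 1.25, on the log2(FPKM + 1) scale that understates low genes, and all tested genes had a median of 0.03. The rise ran from 0.33 for Tomm20 to 2.35 for Samm50. Rescaling each library to a common total (TPM) moved the median of all genes to -0.50 and that of the members to 0.77, with 20 members higher and 2 lower. Of all called genes 52.2% were higher in brown fat, and 22.6% with TPM scaling. Tomm6 and Tomm20 then turned to -0.21 and -0.23 and Timm17b to about 0.

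Brown fat against soleus sets the heat-producing tissue beside the oxidative muscle. Of the 24 members 14 were higher in brown fat, 4 were lower (Timm17a, Timm23, Timm8b and Tomm20) and 6 were not called, with 78.5% of tested genes called, 52.9% as higher and 25.6% as lower. These shares of members are near those of all tested genes, so the split is not a result about the machinery. The median log2 fold change of the members was 0.50, and that of all tested genes 0.29. The calls of the higher members rest partly on scaling. Upper quartile scaling brought the median of all genes to 0.01 and left 9 members higher and 8 lower, and the median of ratios took it to -0.01, with 8 higher and 8 lower. Of all called genes, 67.4% were higher in brown fat on deposited FPKM, 50.9% with upper quartile scaling and 49.3% with median of ratios. Members whose direction turned are named in the account of processing choices.

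White fat against soleus sets the lipid store beside the oxidative muscle. Of the 24 members 19 were lower in white fat, 2 were higher (Tomm34 and Tomm6) and 3 were not called (Mtx1, Timm50 and Tomm70a), with 84.2% of tested genes called, 54.5% as higher and 29.7% as lower. The members' median was -0.93, against 0.35 for all tested genes. With TPM scaling the median of all genes was 0.93 and that of the members -0.46, with 5 members higher and 14 lower. Of all called genes 64.7% were higher in white fat, 78.8% with TPM scaling and 48.7% with median of ratios. These comparisons share libraries, so their values are set side by side and not as separate evidence.

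**Figure D2:**
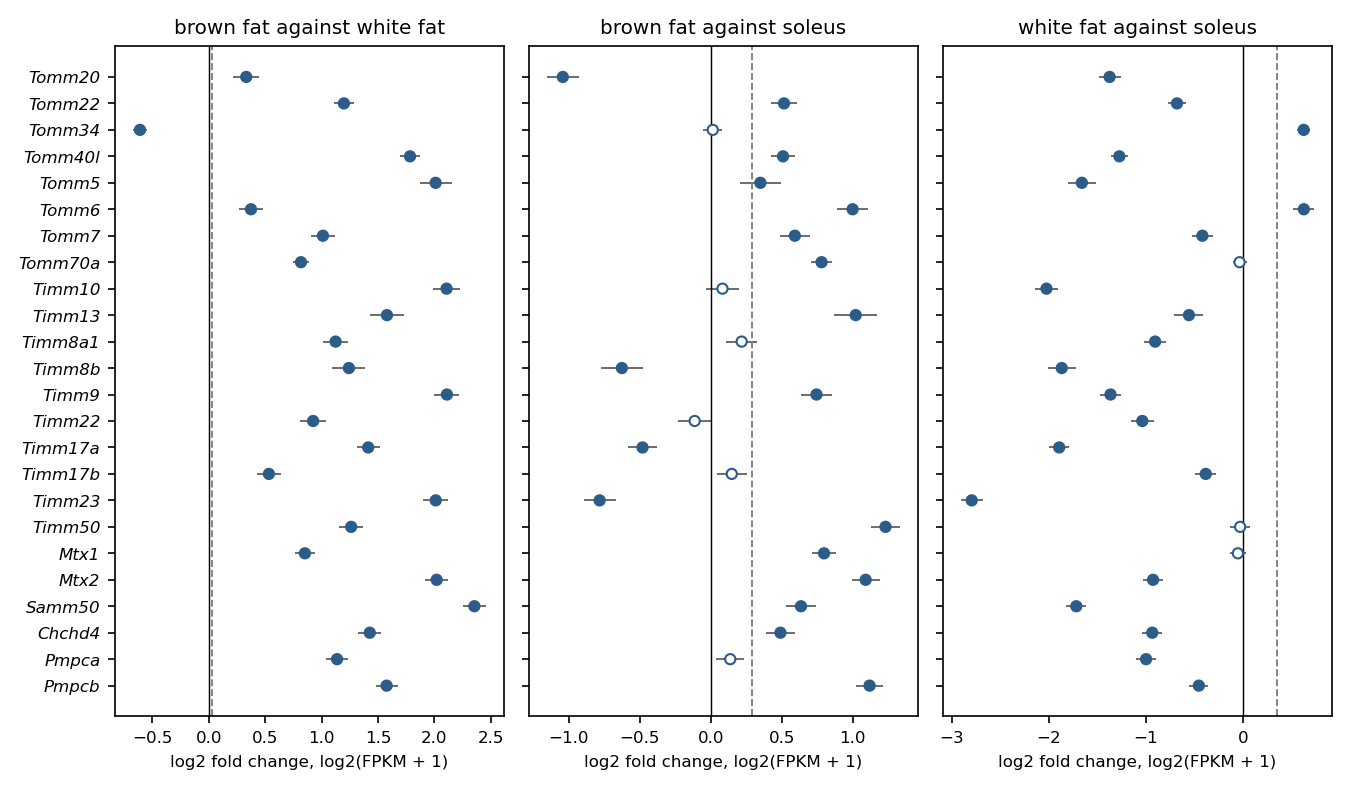
Log2 fold change (on log2(FPKM + 1), bars: standard error from limma) of each tested import gene in brown against white fat, brown fat against soleus and white fat against soleus, 3 libraries per tissue. Filled points passed an adjusted p under 0.05, and the dashed line is the median of all tested genes (0.03, 0.29 and 0.35), from which Timm23, Tomm20, Timm8b and Timm17a fall to the left in brown fat against soleus.

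In the outer membrane, the TOM receptors did not move as one. Tomm20, the receptor that binds targeting sequences, stood at 21.4, 16.7 and 18.0 FPKM in brown fat, 16.7, 13.9 and 13.3 FPKM in white fat and 39.3, 43.1 and 36.0 FPKM in soleus. Soleus stood apart from both fats, which did not overlap but nearly touched. Tomm20 was 1.04 log2 units lower in brown fat than in soleus (log2 fold change -1.04, SE 0.11, limma adjusted p = 7.6e-06). Its difference between brown and white fat, 0.33 (SE 0.11, adjusted p = 0.022), missed the threshold in 7 of 22 alternatives or turned, over adjusted p-values from 0.0080 to 0.087, and was 0.24 (adjusted p = 0.087) without brown fat replicate 1, 0.30 (0.064) without white fat replicate 2 and 0.27 (0.084) without white fat replicate 3. Annotated processed pseudogenes match Tomm20 at 95% identity or more, 4 in all, so its level is uncertain.

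Tomm70a, the receptor for carrier proteins, averaged 28.03 ± 0.791 FPKM in brown fat, 15.5 ± 1.04 FPKM in white fat and 15.9 ± 0.735 FPKM in soleus (SD, n = 3 each). It was 0.82 log2 units higher in brown than in white fat and 0.78 higher than in soleus (SE 0.07 in each case), while white fat and soleus overlapped. Tomm22, the central receptor, averaged 87.3 ± 3.17 FPKM in brown fat, 37.5 ± 2.61 FPKM in white fat and 60.9 ± 6.51 FPKM in soleus. Its 0.52 log2 units over soleus became 0.14 (limma adjusted p = 0.13) with upper quartile and 0.11 (0.28) with median of ratios scaling, over adjusted p-values from 2.7e-05 to 0.28. The same scalings ended the call of Tomm40l in that comparison, at 0.15 and 0.11. Tomm20l, a relative of Tomm20, was listed at 0 in all 9 libraries.

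Among the small TOM subunits, which stabilise the pore, Tomm5 moved most between the fats. It stood at 86.3, 97.0 and 81.2 FPKM in brown fat, 25.4, 17.6 and 20.9 FPKM in white fat and 64.9, 81.6 and 61.3 FPKM in soleus. Brown fat was 2.01 log2 units above white fat (SE 0.14, limma adjusted p = 3.1e-07) and overlapped with soleus, where the call (0.35, adjusted p = 0.043) was lost or turned in 11 of 22 alternatives, over adjusted p-values from 0.013 to 0.89. Among these were leaving out brown fat replicate 1 (0.36, adjusted p = 0.070) or 2 (0.28, 0.14), white fat replicate 3 (0.35, 0.056) and soleus replicate 1 (0.31, 0.11) or 3 (0.27, 0.15). Tomm7, the highest of the TOM genes on average, stood at 100.8, 90.7 and 91.1 FPKM in brown fat, 51.0, 42.5 and 45.2 FPKM in white fat and 59.4, 71.1 and 56.6 FPKM in soleus. No tissue overlapped with another for Tomm7. Its difference was 1.01 log2 units between brown and white fat and 0.59 between brown fat and soleus (SE 0.10 in each case). The difference from soleus became 0.22 (limma adjusted p = 0.068) with upper quartile and 0.19 (0.14) with median of ratios scaling, over adjusted p-values from 5.4e-05 to 0.14.

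Tomm6 was lowest in soleus, unlike its small partners. It averaged 79.1 ± 2.92 FPKM in brown fat, 61.1 ± 8.73 FPKM in white fat and 39.2 ± 3.78 FPKM in soleus. Brown fat was 1.00 log2 units above soleus (SE 0.11, limma adjusted p = 7.0e-06), and white fat 0.62 above it (SE 0.11, adjusted p = 0.00025), which became 0.16 (adjusted p = 0.20) under the median of ratios, the alternatives spanning 6.8e-08 to 0.20. An antisense gene, Tomm6os, and Frs3, Gm20517 and Usp49 overlap Tomm6, and no source states that strand was used. Other annotated genes also overlap Timm8b, Timm13, Timm9, Timm50, Mtx2, Pmpcb, Tomm20 and Timm23, so the same limit may hold for their levels and ratios. Tomm40l, a close relative of the pore protein, averaged 29.9 ± 1.39 FPKM in brown fat, 7.995 ± 0.922 FPKM in white fat and 20.7 ± 0.981 FPKM in soleus, and was 1.78 log2 units higher in brown than in white fat (SE 0.08). Tomm40l shares sequence with the overlapping gene Nr1i3, and 2 pseudogenes match Tomm7 and 1 matches Tomm5, so these levels are uncertain too.

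Tomm34, a cytosolic cochaperone that holds precursors before import, was the exception of the machinery. It stood at 6.71, 6.59 and 7.01 FPKM in brown fat, 10.8, 10.4 and 11.4 FPKM in white fat and 6.55, 6.97 and 6.55 FPKM in soleus. White fat lay above both other tissues, which overlapped. Its log2 fold change was -0.61 in brown against white fat (SE 0.07, limma adjusted p = 9.3e-06) and 0.62 in white fat against soleus (SE 0.07, adjusted p = 4.7e-06).

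The SAM complex, which inserts barrel proteins into the outer membrane, had its 3 members higher in brown fat than in both other tissues. Samm50, its core, stood at 200, 228 and 212 FPKM in brown fat, 45.9, 37.7 and 39.5 FPKM in white fat and 122.5, 146 and 143 FPKM in soleus. The tissues did not overlap. Brown fat was 5.199-fold above white fat in FPKM, or 2.35 log2 units (SE 0.10, limma adjusted p = 9.7e-09), and 0.64 log2 units above soleus (SE 0.10, adjusted p = 0.00019), which became 0.23 (adjusted p = 0.057) with median of ratios scaling. Mtx2, a metaxin on the cytosolic face, stood at 98.5, 104.9 and 94.9 FPKM in brown fat, 26.0, 23.0 and 22.4 FPKM in white fat and 43.1, 53.0 and 42.9 FPKM in soleus. It rose by 2.02 log2 units over white fat and 1.09 over soleus (SE 0.10 in each case). Mtx1, its partner, changed less, at 22.9, 24.2 and 23.5 FPKM in brown fat, 13.8, 11.8 and 12.2 FPKM in white fat and 11.98, 14.63 and 12.86 FPKM in soleus, with white fat and soleus overlapping.

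The small TIM chaperones work as hexamers, one of Timm9 with Timm10 and one of a Timm8 protein with Timm13. All 5 tested were higher in brown fat than in white fat, by 1.12 to 2.11 log2 units, where 38.0% of all tested genes were higher. Timm9 stood at 42.7, 45.0 and 38.3 FPKM in brown fat, 9.78, 8.71 and 8.40 FPKM in white fat and 24.8, 28.5 and 21.1 FPKM in soleus. Its partner Timm10 stood at 70.8, 76.5 and 64.5 FPKM in brown fat, 17.3, 13.9 and 15.8 FPKM in white fat and 59.4, 77.8 and 63.4 FPKM in soleus. Timm9 was 0.74 log2 units higher in brown fat than in soleus (SE 0.11, limma adjusted p = 9.3e-05), whereas for Timm10 those tissues overlapped (0.08, SE 0.12, adjusted p = 0.53).

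Timm8b and Timm13 went apart in soleus. Timm8b stood at 185.8, 183 and 155.5 FPKM in brown fat, 87.1, 60.6 and 73.9 FPKM in white fat and 245, 317 and 251 FPKM in soleus, the highest level of any member. Timm13 stood at 93.3, 100.5 and 89.5 FPKM in brown fat, 39.5, 24.8 and 30.1 FPKM in white fat and 43.3, 53.0 and 42.3 FPKM in soleus. Brown fat was thus below soleus for Timm8b (log2 fold change -0.63, SE 0.15, limma adjusted p = 0.0024) and above it for Timm13 (1.02, SE 0.15, adjusted p = 8.4e-05). Timm8a1, whose human counterpart is mutated in a deafness and dystonia syndrome, was far lower than Timm8b, at 3.23, 3.16 and 2.55 FPKM in brown fat, 1.02, 0.728 and 0.726 FPKM in white fat and 1.99, 2.80 and 2.48 FPKM in soleus, a level that is uncertain because Gm9797 matches it closely. Timm8a2 reached 0.0174 FPKM in 1 brown fat library and 0.0135 FPKM in 1 white fat library, was listed at 0 in the other 7, and was not tested.

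In the TIM23 complex, Timm23 and Timm17a were lower and Timm50 higher in brown fat than in soleus, and Timm17b was not called. Timm23, the channel protein, stood at 7.84, 7.21 and 6.34 FPKM in brown fat, 1.21, 0.796 and 1.05 FPKM in white fat and 11.8, 15.0 and 12.3 FPKM in soleus. The 3 tissues did not overlap. White fat lay below soleus (log2 fold change -2.79, SE 0.11, limma adjusted p = 2.0e-09), and brown fat was 2.01 above white fat (SE 0.11, adjusted p = 5.2e-08). These sizes depend on the pseudocount, since Timm23 is near 1 FPKM in white fat. They were -3.56 and 2.71 with a pseudocount of 0.1, and -1.58 and 1.01 with 5, where Timm8b and Timm17a changed more in white fat against soleus. Timm23 lay well below Timm17a, its partner in the channel, in FPKM. It has 5 annotated processed pseudogenes and 1 further gene model that match it at 95% identity or more, so its level is uncertain.

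Timm17a, which a pseudogene and 1 other gene model match closely, stood at 91.3, 102 and 91.7 FPKM in brown fat, 37.0, 36.7 and 31.6 FPKM in white fat and 122, 150 and 128 FPKM in soleus. It was lower in brown fat than in soleus (log2 fold change -0.48, SE 0.10, limma adjusted p = 0.0012) and 1.41 log2 units higher than in white fat. Timm50, the receptor that guides precursors to the channel, stood at 81.6, 90.5 and 81.0 FPKM in brown fat, 40.2, 31.8 and 32.1 FPKM in white fat and 32.7, 37.9 and 35.5 FPKM in soleus. Brown fat lay above both other tissues, which overlapped, by 1.26 log2 units over white fat and 1.23 over soleus (SE 0.10 in each case, adjusted p = 9.9e-07 and 8.7e-07). The directions of Timm23, Timm17a and Timm50 in brown fat against soleus were the same under all 22 alternatives.

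Timm17b, the X-linked relative of Timm17a, varied little, at 12.9, 12.9 and 12.3 FPKM in brown fat, 9.89, 7.16 and 8.51 FPKM in white fat and 10.45, 12.72 and 10.98 FPKM in soleus. Its difference of 0.53 log2 units between the fats (SE 0.11, limma adjusted p = 0.0010) was about 0 with TPM scaling (adjusted p = 0.98, range 0.00035 to 0.98). Other annotated genes match Timm17b closely, 10 in all, over at most 140 bases, so its level is uncertain. Among them is Gm11032, which also matches Timm17a. Timm22, the channel for carrier proteins, stood at 12.7, 10.9 and 8.84 FPKM in brown fat, 5.59, 4.77 and 5.13 FPKM in white fat and 10.9, 13.0 and 11.2 FPKM in soleus. It was 0.93 log2 units higher in brown than in white fat (SE 0.12), and brown fat overlapped with soleus. Its log2 fold change in brown fat against soleus was -0.11 (limma adjusted p = 0.40). With upper quartile, median of ratios and quantile scaling this became -0.46, -0.49 and -0.43, each called (adjusted p = 0.0030, 0.0027 and 0.0045).

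Chchd4, the oxidoreductase that traps cysteine-rich proteins between the membranes by forming disulfide bonds, stood at 27.9, 26.6 and 22.2 FPKM in brown fat, 8.83, 8.55 and 9.17 FPKM in white fat and 16.2, 20.3 and 17.2 FPKM in soleus. No tissue overlapped with another. Brown fat was 1.43 log2 units above white fat (SE 0.10, limma adjusted p = 3.5e-07). The 0.49 above soleus (adjusted p = 0.0011) missed the threshold with upper quartile, median of ratios and quantile scaling, at adjusted p-values of 0.22, 0.39 and 0.076.

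The matrix processing peptidase is a dimer of Pmpca, which binds the precursor, and Pmpcb, which holds the catalytic site. Pmpcb stood at 150, 134 and 129.8 FPKM in brown fat, 48.8, 45.0 and 42.9 FPKM in white fat and 56.0, 68.1 and 64.9 FPKM in soleus. Pmpca stood at 46.5, 41.4 and 41.2 FPKM in brown fat, 19.4, 19.6 and 18.0 FPKM in white fat and 34.2, 38.8 and 44.5 FPKM in soleus. Both were higher in brown fat than in white fat, by 1.58 and 1.14 log2 units (SE 0.10 in each case). Of all tested genes 38.0% were higher in that comparison. Against soleus Pmpcb was 1.12 higher (limma adjusted p = 1.1e-06), whereas Pmpca, which overlaps and shares sequence with Inpp5e, did not separate (0.14, adjusted p = 0.22).

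The FPKM ratio of paired genes within a library is unchanged when that library is multiplied by a constant. The tested quantity, the difference of log2(FPKM + 1), is not fully so, because of the pseudocount. It differed between tissues for all 7 pairs with both genes in the matrix. Each was tested over all assignments of the 9 libraries to the tissues by an exact permutation test whose smallest p is 0.00357, with adjustment over the 7 pairs. Timm9/Timm10 gave an adjusted p of 0.032 (exact) and the other pairs 0.00417 each. These pairs were set with earlier results of the series known. The share of other gene pairs that would pass was not computed, so the count of 7 is not a result about these pairs. Of single tested genes, 72.8% to 84.2% were called in each comparison.

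The ratio of Timm17b to Timm17a was 0.141, 0.127 and 0.134 in the brown fat libraries, 0.267, 0.195 and 0.270 in those of white fat and 0.0857, 0.0849 and 0.0858 in those of soleus. White fat thus had the most Timm17b for its Timm17a and soleus the least, though other annotated genes match both closely. Timm13 over Timm8b was 0.502, 0.549 and 0.576 in the brown fat libraries, 0.453, 0.410 and 0.407 in those of white fat and 0.177, 0.168 and 0.168 in those of soleus, so that soleus stood far from both fats. Timm9 over Timm10 was 0.604, 0.589 and 0.594 in the brown fat libraries, 0.566, 0.628 and 0.532 in those of white fat and 0.418, 0.367 and 0.332 in those of soleus, with the fats overlapping. For Timm8a1 over Timm8b the values were 0.0174, 0.0172 and 0.0164 in the brown fat libraries, 0.0117, 0.0120 and 0.00982 in those of white fat and 0.00812, 0.00885 and 0.00987 in those of soleus. The tested log2(FPKM + 1) difference put this ratio slightly higher in white than in brown fat (-5.35 in white fat, -5.47 in brown fat), where Timm8a1 is below or near the pseudocount of 1 FPKM.

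Pmpcb over Pmpca was 3.23, 3.23 and 3.15 in the brown fat libraries, 2.51, 2.30 and 2.38 in those of white fat and 1.64, 1.76 and 1.46 in those of soleus. Brown fat held the most catalytic subunit transcript for its partner. Mtx2 over Mtx1 was 4.30, 4.33 and 4.04 in the brown fat libraries, 1.89, 1.94 and 1.83 in those of white fat and 3.59, 3.62 and 3.34 in those of soleus. Dnajc15 over Dnajc19, related J proteins of the import motor that are not in the set of 26, was 35.4, 43.3 and 39.1 in the brown fat libraries, 11.5, 14.7 and 12.5 in those of white fat and 15.4, 16.5 and 16.2 in those of soleus.

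**Figure D3:**
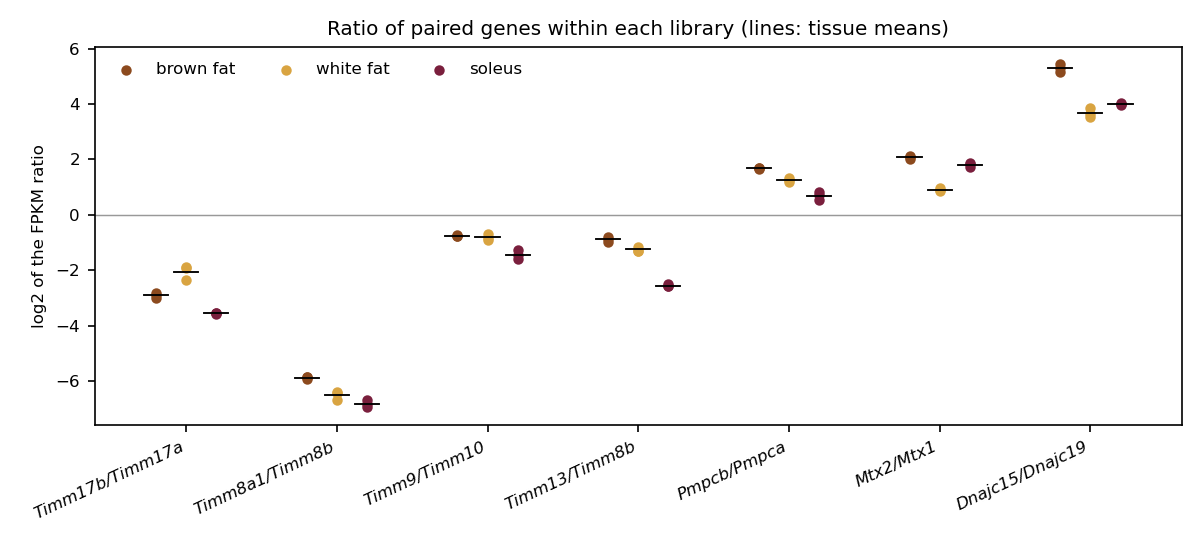
Log2 of the FPKM ratio of paired genes within each of the 9 libraries, with brown fat, white fat and soleus side by side for each pair and lines at tissue means. Soleus means are lowest for the pairs of Timm and Pmpc genes, and white fat means for Mtx2/Mtx1 and Dnajc15/Dnajc19.

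Other genes of import and of mitochondrial protein care were followed in lists set by function. Of the 8 tested genes of the matrix motor and its chaperones all rose in brown over white fat, with a median of 1.85 log2 units, where 38.0% of all tested genes were called higher. Against soleus 6 of the 8 were higher in brown fat, where 52.9% of all were, and in white fat against soleus 2 were higher and 6 lower, where 54.5% and 29.7% of all were. Hspa9, the motor ATPase that pulls proteins in, averaged 499 ± 12.6 FPKM in brown fat, 127.5 ± 4.94 FPKM in white fat and 159 ± 13.4 FPKM in soleus (SD, n = 3 each). Dnajc15 averaged 417.5 ± 23.5 FPKM in brown fat, 86.7 ± 4.42 FPKM in white fat and 151.5 ± 20.7 FPKM in soleus. Hspd1, the folding chamber of the matrix, was 2.27 log2 units higher in brown fat than in soleus, at 176.5 ± 26.1 FPKM in brown fat against 35.6 ± 2.92 FPKM in soleus. In white fat against soleus Trap1, a matrix chaperone, was 0.57 higher and Grpel1, the nucleotide exchange factor of the motor, had a log2 fold change of -0.80.

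Of 17 tested peptidase and insertion genes 14 rose in brown over white fat and 3 were not called (Gfer, Oma1 and Yme1l1), with a median of 1.02 and 38.0% of all tested genes called higher. Against soleus 14 were higher and 2 lower in brown fat, with 52.9% and 25.6% of all genes so called. In white fat against soleus 5 were higher and 9 lower, with 54.5% and 29.7% of all genes so called. Afg3l2, a protease of the inner membrane, averaged 86.5 ± 2.26 FPKM in brown fat, 15.0 ± 0.0589 FPKM in white fat and 26.1 ± 1.99 FPKM in soleus. Aifm1, which anchors Chchd4, averaged 99.3 ± 1.42 FPKM in brown fat, 21.1 ± 1.36 FPKM in white fat and 23.6 ± 1.90 FPKM in soleus. Gfer, the sulfhydryl oxidase that recharges Chchd4, averaged 9.57 ± 0.785 FPKM in brown fat, 10.1 ± 0.475 FPKM in white fat and 9.79 ± 0.584 FPKM in soleus, and no comparison called it. Xpnpep3, a peptidase, averaged 8.32 ± 1.32 FPKM in brown fat, 5.12 ± 0.310 FPKM in white fat and 1.07 ± 0.150 FPKM in soleus. The protease gene Oma1 was lower in brown fat than in soleus (log2 fold change -0.97), and Immp1l, an inner membrane peptidase, was lower in white fat than in soleus (-1.26).

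Of 11 tested genes of cristae junctions and outer membrane contact 10 rose in brown over white fat, with a median of 1.28 and 38.0% of all tested genes called higher. Against soleus 7 were higher and 2 lower in brown fat, shares near the 52.9% and 25.6% of all tested genes. Chchd3, of the cristae complex that contacts SAM, averaged 319 ± 14.5 FPKM in brown fat, 57.2 ± 2.45 FPKM in white fat and 315 ± 24.8 FPKM in soleus. Its relative Chchd6 averaged 40.4 ± 0.661 FPKM in brown fat, 36.4 ± 4.79 FPKM in white fat and 3.84 ± 0.224 FPKM in soleus, 3.10 log2 units higher in brown fat than in soleus. Vdac1, a pore protein that SAM inserts, averaged 193 ± 4.72 FPKM in brown fat, 79.2 ± 6.33 FPKM in white fat and 734 ± 53.8 FPKM in soleus, with a log2 fold change of -1.92 in brown fat against soleus.

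**Figure D4:**
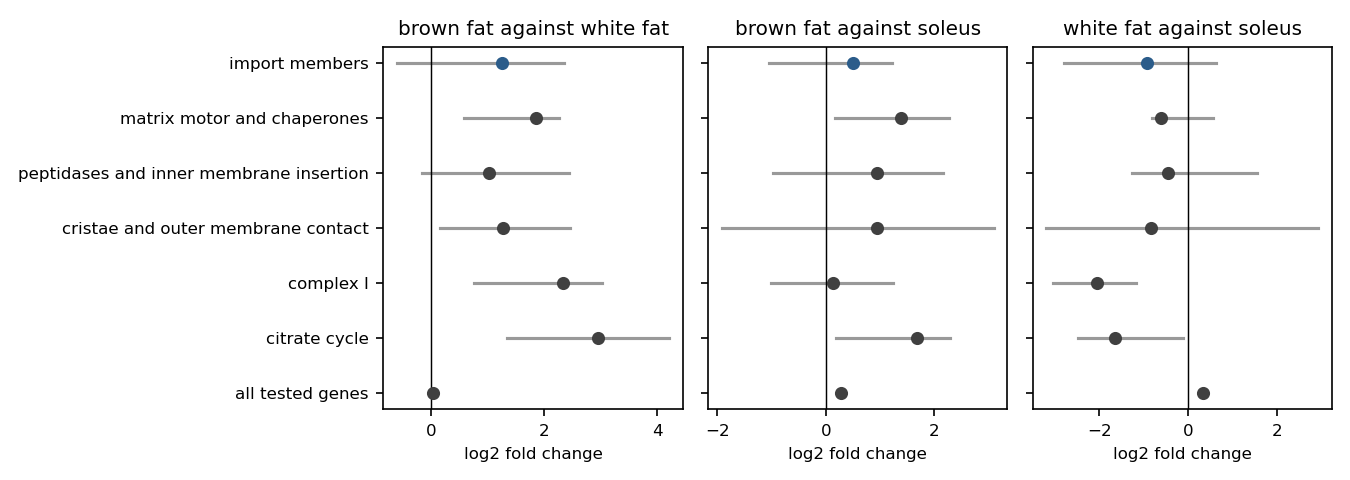
Median (point) and range (line, not drawn for all genes) of the log2 fold changes of the import genes, the related lists, complex I and citrate cycle genes and all tested genes, in the 3 comparisons. In brown against white fat the import median of 1.25 lies above that of all genes (0.03) and below those of complex I (2.33) and the citrate cycle (2.95).

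Enzymes that are imported gave a yardstick for the import genes. The 17 citrate cycle genes had a median of 2.95 log2 units in brown against white fat and the 37 complex I genes one of 2.33, against 1.25 for import. In brown fat against soleus the medians were 0.50 for import, 0.14 for complex I and 1.69 for the citrate cycle, and in white fat against soleus they were -0.93, -2.06 and -1.65. For a description on that yardstick, the mean log2(FPKM + 1) of the 17 citrate cycle genes was subtracted in each library before the fit. This shifts every gene alike, so the counts follow the background and are no test of the import genes. On that scale all 24 members lay lower in brown fat than in white fat, with a median of -1.73, where 99.0% of tested genes were called, 98.3% as lower and 0.757% as higher, and the median of all was -2.96. The members' median thus lay above that of all genes. Samm50 stood at -0.63 and Tomm34 at -3.59.

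Against soleus, all 24 members were lower in brown fat relative to the citrate cycle genes, with 92.5% of tested genes called, 83.6% as lower and 8.92% as higher, and a median of -0.98 for members and -1.20 for all. In white fat against soleus 16 members were higher and 5 lower relative to them, with 96.5% of tested genes called, 88.4% as higher and 8.15% as lower. The median was 0.57 for members and 1.85 for all tested genes, so here the members' median lay below that of all. Timm23 stood at -1.29 there, but at -0.11 with a pseudocount of 5, and 3 members were lower without soleus replicate 2. With the 37 complex I genes as the yardstick the median in brown against white fat was still below 0, at -0.98, but that in brown fat against soleus turned to 0.32, with 13 members higher and 4 lower. The median of all tested genes in brown fat against soleus turned as well, to 0.11, and 57.7% of called genes were higher. The turn of the members thus followed that of all genes. The direction relative to imported enzymes in brown fat against soleus thus depended on the yardstick.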

How the data were processed

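RNA-seq was made from 9 libraries, 3 each of brown fat, white fat and soleus. RNA was extracted with TRIzol and libraries were prepared by Illumina's TruSeq chemistry, version 2, per the labels' protocols. Per the submitters' processing notes, TopHat 1.4.1, Cufflinks 2.0.1 and mm9 were used. The annotation and the treatment of reads with several matches were not given in the sources used here. The authors deposited 1 matrix of FPKM values with 18401 rows named by RefSeq accessions.

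Accessions were matched to symbols, 18305 rows from a RefSeq gene table and 38 from GENCODE. The 58 rows left, 55 without a symbol and 3 with several, held at most 0.360% of a library's FPKM. Rows of 1 symbol were summed, and each import gene had 1 row. All 9 libraries were fitted together in limma 3.58.1 under R 4.3.3 on log2(FPKM + 1) with a mean-variance trend, for the 9913 genes that reached 1 FPKM in 3 or more libraries. Tests were two-sided with Benjamini-Hochberg adjustment over all tested genes in each comparison, and the fit was checked on simulated data. FPKM divides by the library's mapped total, so abundant transcripts lower all others. An exact 0 can be a failed estimate, and read totals, and so counting error, are unknown.

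The members, lists and pairs were chosen with earlier results of these data known. Values per library are given for genes in pairs, and in each complex for the highest member and the called members with the largest changes, for Tomm34 and for members under 1 FPKM. Each related list is shown by its highest gene and by the called gene of largest change on either side. Named beyond that rule were Gfer, Yme1l1 and the uncalled or unequal members of small counts. Same-numbered libraries did not deviate together, which cannot exclude that they share a mouse, and the main fit used no block. Alternatives covered the pseudocount, the filter, 4 scalings, the libraries and variance model of the fit, the replicate number as a block, the treatment of rows and each library left out. Tomm40l/Tomm40 and Grpel2/Grpel1 were among the 9 pairs set and were not analysed here.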

Additional observations from a re-analysis of the deposited data

How the results depend on the processing

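The counts of members were within 1.5 times of those given, and medians within 1 SD of the libraries' medians, except as follows. In brown against white fat, TPM scaling gave 2 lower members, and the members' median was 1.36 and 1.13 with a pseudocount of 0.1 and 5, 0.769 with TPM, 1.17 with upper quartile and 1.09 with quantile scaling. In brown fat against soleus the members higher numbered 9 with upper quartile and 8 with median of ratios scaling, those lower 8, 8 and (quantile) 7, and the medians were 0.138, 0.104 and 0.184. In white fat against soleus the members higher were 5 with TPM and 1 with median of ratios scaling, and the median was -1.02 and -0.717 with a pseudocount of 0.1 and 5, and -0.460, -1.21, -1.39 and -1.14 with TPM, upper quartile, median of ratios and quantile scaling. Leaving out 1 library gave medians of 1.19 to 1.37 and -1.001 to -0.838 for brown against white fat and for white fat against soleus, and 22 to 23 members higher in brown than in white fat. The cause was not tested.

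Directions turned with TPM scaling, in brown against white fat, for Timm17b (-0.0031), Tomm20 (-0.232) and Tomm6 (-0.209), in the contrast of brown fat with soleus for Tomm34 (-0.0157), and in white fat against soleus for Mtx1 (0.488), Pmpcb (0.0910), Timm17b (0.128), Timm50 (0.520), Tomm7 (0.128) and Tomm70a (0.508). In brown fat against soleus they turned with upper quartile, median of ratios and quantile scaling for Pmpca (-0.230, -0.264 and -0.129), Timm10 (-0.289, -0.323 and -0.209), Timm17b (-0.200, -0.233 and -0.170), Timm8a1 (-0.0562, -0.0823 and -0.0265) and Tomm34 (-0.315, -0.347 and -0.304), and with the first and second of these for Tomm5 (-0.0225 and -0.0565). Some turned values were called in the new direction. With TPM these were Tomm6 in brown against white fat, and Mtx1, Timm50 and Tomm70a in white fat against soleus. In brown fat against soleus they were Tomm34 and Timm10 with all of those scalings, and Pmpca with upper quartile and median of ratios. Median of ratios scaling instead called Mtx1, Timm50 and Tomm70a lower in white fat than in soleus. Left-out libraries turned only uncalled values near 0, which spanned -0.00782 to 0.0408 for Tomm34 and -0.226 to 0.0115 for Timm22 in brown fat against soleus, and -0.139 to 0.0260 for Timm50 and -0.116 to 0.0192 for Mtx1 in white fat against soleus. Of the other member values, 29 calls were lost and 14 gained, and 1505 values kept call and direction.

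Relative to the citrate cycle genes, the median was -1.64 (brown against white fat) and 0.494 (white fat against soleus) with a pseudocount of 0.1, 0.746 with 5, and -1.66 without white fat replicate 1, within -1.76 to -1.66 over left-out libraries. With a pseudocount of 5, 3 members were lower in white fat than in soleus, and 3 to 6 over left-out libraries. With complex I genes as the reference the medians were -0.979, 0.322 and 1.12, beside -2.2, 0.111 and 2.4 for all tested genes. Members in brown fat against soleus were 13 higher and 4 lower, where 57.7% of all called genes were higher, and 1 was lower in white fat than in soleus. Samm50 turned to 0.122, 0.458 and 0.336 in the 3 comparisons and Timm50 to 1.05 in brown fat against soleus.

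Same-numbered libraries of different tissues correlated in their deviations at -0.220 to 0.0774. Such values cannot tell whether these libraries share a mouse. With the replicate number as a block 23 members were higher and 1 lower in brown against white fat, and 13 and 4 for brown fat against soleus, where Tomm5 was lost, and 2 and 19 in white fat against soleus. All 7 pair ratios passed under every alternative, at exact adjusted p-values up to 0.036. Unknown read totals limit the values of Timm8a1 and Timm23 near 1 FPKM in white fat.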
